A study of Arabidopsis thaliana with 18 samples.

Results

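The comparison described here set 3 libraries of Arabidopsis seedlings kept in the dark against 3 libraries of seedlings exposed to white light (WL) for 30 min, that is 6 of the 18 RNA-seq libraries of a deetiolation time course. All libraries came from whole 5-day-old wild-type Col-0 seedlings kept in constant darkness after germination had been induced. For dark-grown seedlings the authors describe this induction as 6 h of WL before the plates were covered, so the dark libraries had also seen light at that stage. The remaining groups were exposed to WL for 15, 60, 150 or 360 min, with 3 biological replicates each. The members of both groups followed from the sample labels, and every gene that passed a filter on low counts was tested (16747 of 34212). No dark libraries were collected beside the light libraries at the later times, so the minutes of WL and the minutes since the start of the experiment cannot be told apart. Since each library was made from whole seedlings, a lower number of cells of a type and less RNA per cell cannot be told apart either.

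When a seedling reaches light, phytochromes and cryptochromes are activated and the PHYTOCHROME INTERACTING FACTORs (PIFs), bHLH proteins that keep growth genes on in darkness, are removed within minutes. At the same time the E3 ligase complex of COP1 and SPA proteins is inhibited, so that the bZIP factor HY5 and its partners of the B-box (BBX) family accumulate and turn on light-responsive genes. The first transcripts known to respond include regulators of both branches, long before chloroplast proteins and cell walls are remodelled.

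At 30 min of WL, 14 genes were called higher and 0 were called lower than in the dark by edgeR's quasi-likelihood test at a Benjamini-Hochberg adjusted p below 0.01, which is 0.0836% and 0% of the genes tested. At an adjusted p below 0.05 there were 22 higher (0.131%) and 0 lower (0%). At an unadjusted p below 0.05 there were 254 higher (1.52%) and 163 lower (0.973%) genes, and the DESeq2 Wald test on the same counts called 45 higher and 11 lower genes at 0.01. Genes that the filter removed could not be called in either direction, among them GA3OX1, a gibberellin oxidase gene. GA3OX1 had 45 to 160 counts before scaling in the dark and 7 to 33 after 30 min. The 14 genes fell into a few kinds. They were heat shock and stress factors (HSP70, HSP101, HSFA6B, DREB2A, MBF1C and 2 chaperone-like genes), light-signaling regulators and transporters (BBX30, ABCI20, ABCI21, RPT2), MYB-like and clock-associated genes (EPR1, LNK3) and a glutaredoxin-family gene. This grouping was made after the values were seen. Their fold changes ran from 4.53 for EPR1 to 42.6 for BBX30, and in each of the 14 all light libraries lay above all dark libraries. Over all genes tested, 997 (5.95%) lay higher without overlap and 901 (5.38%) lay lower without overlap.

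The upstream sequences of 5 of these genes, and of the heat shock factor gene HSFA2, are shown because they hold letters that light, clock or heat factors are known to bind. Within the 250 bases upstream of the annotated gene start (TAIR10.1 assembly, RefSeq annotation), both strands were searched for the G-box CACGTG, its ACGT core, CATGTG or CACATG (a PIF-binding E-box variant), the evening element AAAATATCT, the CCA1 site AAAAATCT, the I-box GATAAG and a heat shock element, GAANNTTCNNGAA. The heat shock element was added after the values were seen. Capitals mark matches, and each stretch is written 5′ to 3′ on the strand of its gene, with the G-box, the CACATG letters or the evening element marked in the first 4 and the heat shock element, with any G-box, in the last pair.
BBX30, chr4:8708709-8708828, plus strand: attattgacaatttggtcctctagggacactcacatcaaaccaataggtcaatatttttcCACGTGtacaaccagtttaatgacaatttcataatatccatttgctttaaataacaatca
LNK3, chr3:3923300-3923419, plus strand: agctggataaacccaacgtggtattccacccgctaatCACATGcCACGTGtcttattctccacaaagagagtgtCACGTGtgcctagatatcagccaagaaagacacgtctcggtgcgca
EPR1, chr1:6308254-6308353, minus strand: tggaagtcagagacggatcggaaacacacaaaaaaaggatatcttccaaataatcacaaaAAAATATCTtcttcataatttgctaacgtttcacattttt
AT3G14200, chr3:4714779-4714878, minus strand: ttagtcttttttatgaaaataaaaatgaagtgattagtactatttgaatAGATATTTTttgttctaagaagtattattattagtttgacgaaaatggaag
DREB2A, chr5:1602005-1602104, plus strand: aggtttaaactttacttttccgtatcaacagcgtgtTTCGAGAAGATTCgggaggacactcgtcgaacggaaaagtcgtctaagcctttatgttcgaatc
HSFA2, chr2:11135492-11135611, plus strand: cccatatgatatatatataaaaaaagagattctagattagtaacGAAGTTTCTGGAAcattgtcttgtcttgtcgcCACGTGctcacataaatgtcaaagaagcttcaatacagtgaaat
A G-box stood in 2 of the 14 upstream windows (BBX30 once, LNK3 at a pair of positions) and in 7.56% of the 16619 windows of all genes tested that have one. The evening element stood in 2 of 14 (EPR1 and AT3G14200) and in 2.46% of all windows, and the heat shock element in 1 of 14 (DREB2A) and in 0.433% of all. The ACGT core, which includes every G-box, stood in 7 of 14 windows and in 44.5% of all. CATGTG or CACATG (11% of all windows), the CCA1 site (6.83%) and the I-box (12.7%) stood in 1 of 14 each. A match is a description of the letters only, and windows longer than 250 bases were not searched.

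The counts of the 6 libraries rested on 12142398 to 14393499 assigned reads each, of which plastid 23S ribosomal RNA took 34.8% to 71.9% in the dark and 20.3% to 49.3% after 30 min of WL. Without it, 3412808 to 10273575 reads per library were left, and dark replicate 3 was the shallowest. The median log2 fold change over all genes tested was -0.02. The seed storage markers, stores left from the embryo, summed to 11, 2600 and 1190 normalized counts in the dark and to 668, 153 and 90.1 after 30 min, and CRA1 and CRU3 were the 2 of 4 that passed the filter. Their part in the results below was not tested. Root markers summed to 599 to 793 normalized counts in the dark and 546 to 722 after 30 min, and 2 of 5 passed the filter. Of the 5 flower markers, which a seedling should lack, PI alone passed, and the 5 summed to 29.2 to 115 and 29.4 to 90.3. Normalized counts are counts scaled to the mean effective library size, in replicate order here and below.

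The strongest statistical evidence was for HSP70 (AT3G12580, chromosome 3, 3991117 to 3993886), a cytosolic chaperone. It stood at 269, 250 and 368 normalized counts in the dark and at 1915, 1862 and 2406 after 30 min of WL. The light libraries were all above the dark ones, and the mean rose from 296 ± 63.5 to 2061 ± 300.4 (SD, n = 3), a log2 fold change of 2.80 with a standard error of 0.35 (edgeR adjusted p = 0.000965). HSP101 (AT1G74310), the disaggregase that resolves protein aggregates after heat, stood at 108, 79.5 and 116 in the dark and at 537, 688 and 640 after 30 min, without overlap. Its log2 fold change was 2.62 ± 0.38 (SE, edgeR adjusted p = 0.00166).

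Transcription factors of the heat and drought responses rose beside them. HSFA6B (AT3G22830), a heat shock transcription factor, rose from 44.7, 20.4 and 25.4 to 414, 455 and 422 normalized counts. The light libraries were close together and 14.1-fold above the dark mean on the fitted scale (log2 fold change 3.82 ± 0.60, SE, edgeR adjusted p = 0.00415). DREB2A (AT5G05410), which binds dehydration-responsive elements and carries the heat shock element printed above, rose from 480, 254 and 254 to 1650, 2340 and 1815, a log2 fold change of 2.55 ± 0.40 (SE, edgeR adjusted p = 0.00415). MBF1C (AT3G24500), a transcriptional coactivator known for thermotolerance, rose from 113, 97.2 and 54.4 to 436, 761 and 817 (log2 2.92 ± 0.46, SE). In none of these 3 did a light library overlap a dark one. MBF1C overlaps an opposite-strand RefSeq gene by 176 bases and HSP101 one by 101 bases, and counting was not stated to use strand, so a share of their reads could belong to the neighbour.

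Further chaperone-like genes rose as well. AT1G54050, whose RefSeq product is a HSP20-like chaperone, stood at 4.4, 2.72 and 1.81 normalized counts in the dark and at 58.9, 39.7 and 60.7 after 30 min (log2 4.02 ± 0.66, SE, edgeR adjusted p = 0.00607). AT3G14200, a DnaJ-domain protein, rose from 117, 77.5 and 107 to 457, 446 and 645. HSFA2 (AT2G26150), a heat shock factor that was called only at 0.05, had a change about as large as that of BBX30, from 9.52, 14.3 and 1.81 to 275, 325 and 562 (log2 5.36 ± 0.96, SE, edgeR adjusted p = 0.0145). Hop3, a co-chaperone that links HSP70 and HSP90 (log2 2.21, adjusted p = 0.0119 by edgeR), AT5G48570, an FKBP-type isomerase (2.83, 0.0145), and AT1G07400, a HSP20-like chaperone (3.44, 0.02), passed at 0.05 as well. So did AT1G61890, a MATE efflux family gene (log2 1.799), and AT3G02910, an AIG2-like gene (2.16) that an opposite-strand gene covers over its whole length.

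Among all genes tested, 189 had a RefSeq product that names a heat shock protein or a chaperone, a list made after the values were seen. Of these, 4 were called at 0.01, against 0.0836% of all genes, and 16 were higher and 2 lower at an unadjusted p below 0.05, against 1.52% and 0.973%. Without overlap 25 lay higher and 7 lower, against 5.95% and 5.38%, while 96 of the 189 fold changes were positive and their median was 0.01. Of 14 genes whose product names a heat shock factor 1 was called, against 0.0836% of all genes. At an unadjusted p below 0.05, 3 of the 14 were higher, against 1.52%. The median was 0.52, and 12 were positive. The 14 include HSBP, a heat shock factor binding protein and not itself such a factor, which had the lowest value (log2 -0.75).

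**Figure D1:**
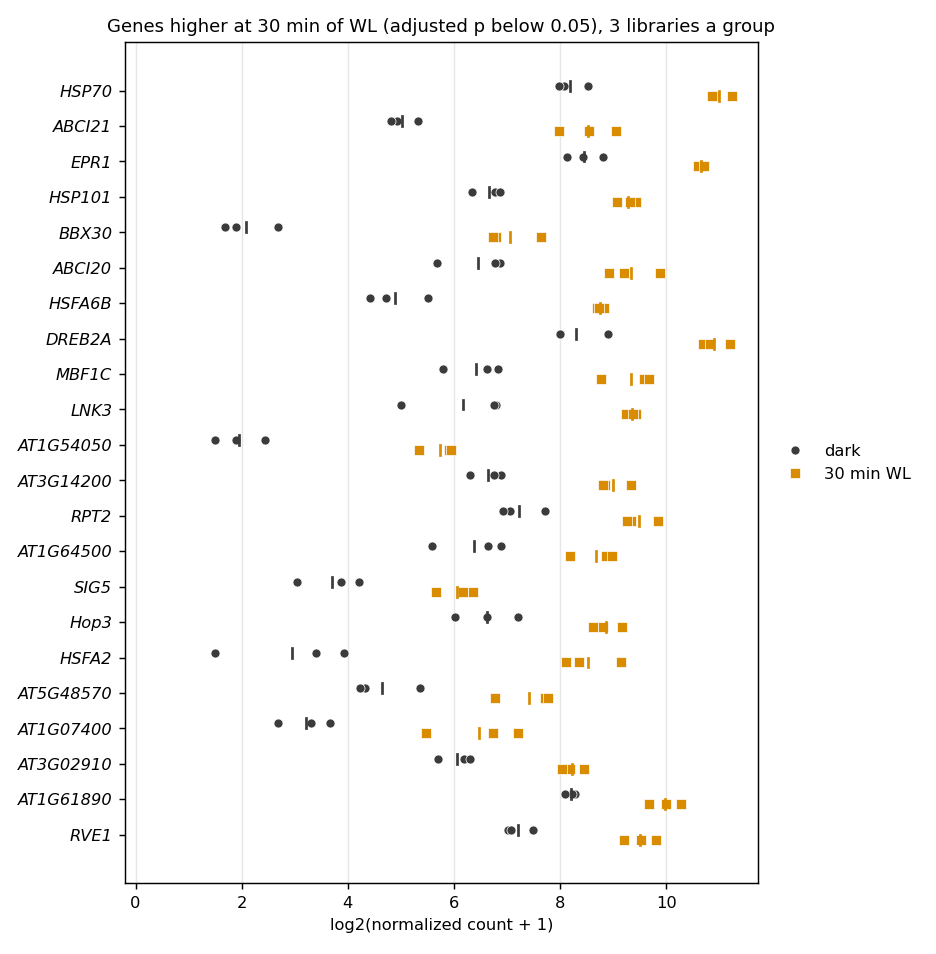
Normalized counts of the 22 genes with an adjusted p below 0.05 (log2 of the normalized count + 1, horizontal axis) in the 3 dark (circles) and 3 30-min WL (squares) libraries, with the mean of each group as a vertical line. In every row the squares lie to the right of the circles, and BBX30, HSFA2 and AT1G54050 are among those that start lowest in the dark.

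Of the regulators of light signaling, BBX30 (AT4G15248, chromosome 4, 8708841 to 8709482), which encodes a small protein with a single type of B-box domain, changed most. It stood at 2.2, 2.72 and 5.44 normalized counts in the dark and at 110, 106 and 197 after 30 min of WL, so it went from near the detection limit to a clear level in all 3 libraries. Its log2 fold change was 5.41 ± 0.78 (SE, edgeR adjusted p = 0.00166). Its close relative BBX31 stood at 5.13, 0.68 and 0 and at 24.4, 65 and 16.1 and did not pass in this fit (log2 3.93 ± 1.02, SE, edgeR adjusted p = 0.222). HY5, the bZIP factor at the centre of this network, stood at 188, 168 and 372 in the dark and at 914, 851 and 1504 after 30 min. The groups of HY5 did not overlap and its log2 fold change was 2.17 ± 0.56 (SE), yet its adjusted p over all genes was 0.22 in this fit. HYH, the homolog of HY5, stood at 11.7, 8.16 and 18.1 and at 61.3, 53 and 97.2 (log2 2.53 ± 0.55, SE, edgeR adjusted p = 0.0825).

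Across the list of HY5 and B-box regulators, 17 of the 19 genes with a matched symbol were tested. In this fit 1 was called, against 0.0836% of all genes, and 9 were higher at an unadjusted p below 0.05, against 1.52%. The median log2 fold change was 1.204, 14 of 17 were positive and 8 lay higher without overlap, against 5.95% of all genes. BBX24 (log2 1.78), BBX22 (1.204) and BBX29 (1.76) were among those with an unadjusted p below 0.05, and BBX20 (-1.01), a coactivator of HY5, had the lowest value and an unadjusted p of 0.225. Of the B-box members BBX21 alone lay lower without overlap (-0.50, unadjusted p = 0.122).

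ABCI20 (AT5G02270) and ABCI21 (AT5G44110) encode ATP-binding cassette proteins of subfamily I, and both passed. ABCI21 stood at 38.8, 29.2 and 27.2 normalized counts in the dark and at 251, 533 and 370.2 after 30 min (log2 3.58 ± 0.50, SE, edgeR adjusted p = 0.00166). ABCI20 rose from 116, 50.3 and 109 to 485, 945 and 587 (log2 2.88 ± 0.43, SE, edgeR adjusted p = 0.00249). In both genes replicate 2 was the highest of the light libraries. The pair is related in sequence, but at most 3.34% of the 31-base words of either gene occurred in any other gene, so the reads of one could be told from those of the other. RPT2 (AT2G30520), an NPH3-family protein needed for phototropism with the blue light receptor phot1, rose from 209, 131 and 120 to 642, 916 and 611 (log2 2.23 ± 0.37, SE, edgeR adjusted p = 0.0063). AT1G64500, a glutaredoxin-family gene, rose from 46.9, 98.6 and 118 to 463, 288 and 499.6 (log2 2.26).

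Of 18 genes in the list of photoreceptors and their partners 0 were called and the median log2 fold change was -0.14. At an unadjusted p below 0.05, 2 were higher, against 1.52% of all genes. PHYA, the labile phytochrome of dark-grown tissue, had a log2 fold change of -0.16, PHYB of -0.33, CRY1 of -0.12, CRY2 of -0.43 and PHOT1, a blue light receptor for phototropism, of -0.80 (unadjusted p = 0.109). CRY3, a DASH-type cryptochrome, and FKF1, a blue light sensing F-box protein, were the 2 with an unadjusted p below 0.05 (1.74 and 1.77), and both lay higher without overlap. All 8 COP1, SPA and RUP repressor genes had positive values with a median of 0.47. SPA1 had the largest value of the 8 (log2 1.62, unadjusted p = 0.105) with overlapping groups. RUP1, a repressor of UV-B signaling, had the smallest p, with 203, 175 and 81.7 normalized counts in the dark against 566, 456 and 377 after 30 min, without overlap (log2 1.59 ± 0.37, SE, edgeR adjusted p = 0.119).

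Clock and clock-associated genes did not move as 1 block. LNK3 (AT3G12320), a member of the LNK family of coactivators that work with MYB-like clock proteins, stood at 109, 107 and 30.9 normalized counts in the dark and at 604, 692 and 658 after 30 min (log2 2.96 ± 0.48, SE, edgeR adjusted p = 0.00539). RVE1, a MYB-like factor, rose from 180, 129 and 134 to 588, 894 and 731 and passed at 0.05 (log2 2.32 ± 0.45, SE, edgeR adjusted p = 0.0264). EPR1 (AT1G18330), a MYB-like factor of the same family, rose from 343, 445 and 278 to 1620, 1548 and 1669 (log2 2.18 ± 0.31, SE, edgeR adjusted p = 0.00166). In all 3 the light libraries lay well above the dark ones, and those of EPR1 and LNK3 were close together. EPR1 shares 58.6% of its 31-base words with other genes, 48.5% with AT3G10113 alone, so reads could be divided between them. The sum of both genes was 379.5, 445 and 278 in the dark and 1653, 1916 and 1669 after 30 min.

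Over the clock list, 19 of 20 genes with a matched symbol were tested. Of these, 1 was called at 0.01, 2 at 0.05 and 7 at an unadjusted p below 0.05, all of them higher. The shares of all genes higher at these thresholds were 0.0836%, 0.131% and 1.52%. The others of these 7 were ELF4 (log2 2.40), a subunit of the evening complex, LNK4 (1.68), PRR5 (1.84), LNK1 (1.62) and CCA1 (1.25). None of them passed after adjustment in this fit. The DESeq2 Wald test, limma-voom and the fit on 9 libraries called ELF4 at 0.01, and limma-voom also called LNK4. The median of the list was 0.31. PRR9, the gene of the list that the filter removed, had 6 to 36 counts before scaling in the dark and 68 to 417 after 30 min. The core genes TOC1 (0.10), LHY (0.06) and ELF3 (0.03) had values near 0, and LNK2 (-0.46) and RVE8 (-0.56) were negative with unadjusted p-values of 0.246 and 0.415.

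**Figure D2:**
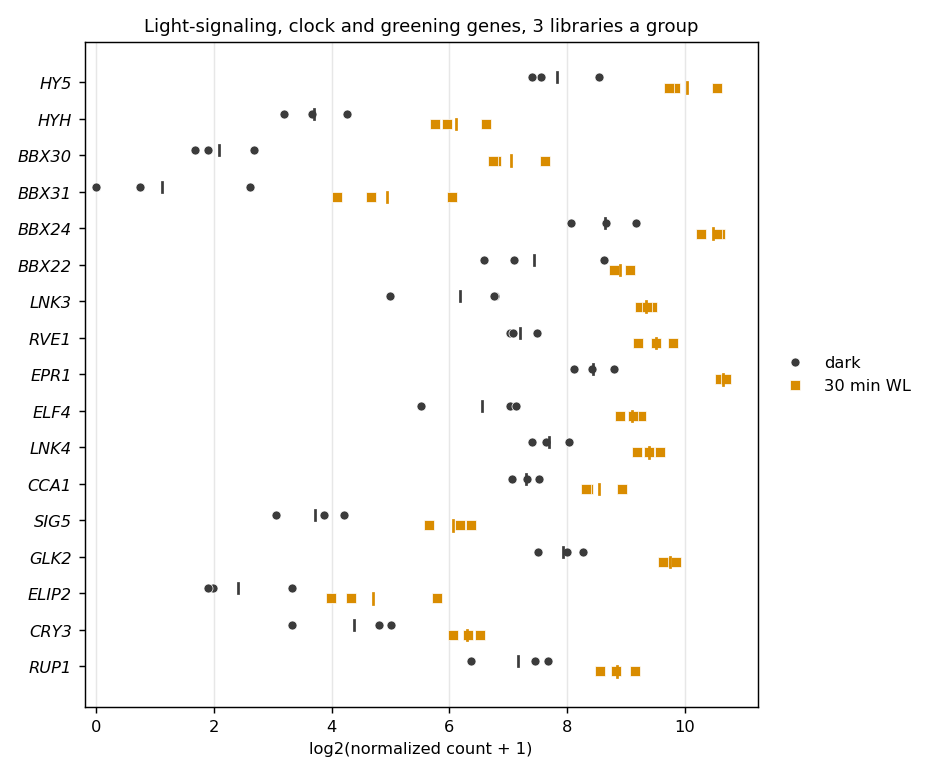
Normalized counts (log2 of the normalized count + 1, horizontal axis) of 17 light-signaling, clock and greening genes in the 3 dark (circles) and 3 30-min WL (squares) libraries, with the group mean as a vertical line. The 3 squares of LNK3, EPR1 and ELF4 lie close together above the circles, while those of BBX31 are spread.

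Among the genes directed to the plastid, SIG5, a sigma factor that directs the plastid-encoded polymerase in a light-dependent way, stood at 17.6, 13.6 and 7.26 normalized counts in the dark and at 49.5, 81.2 and 71.4 after 30 min (log2 2.32 ± 0.41, SE, edgeR adjusted p = 0.0119). GLK2, a GARP factor for chloroplast genes, stood at 256, 309 and 181 and at 862, 928 and 789.5, without overlap (log2 1.79, edgeR adjusted p = 0.119). GLK2 was called at 0.01 by the DESeq2 Wald test, by limma-voom and in the fit on 9 libraries. Of 10 greening regulators and sigma factors, 1 passed at 0.05, against 0.131% of all genes. At an unadjusted p below 0.05, 3 were higher, against 1.52%, and the median was 0.40. ELIP2, an early light-induced protein of thylakoids, stood at 2.93, 2.72 and 9.07 and at 14.9, 19 and 54.4 (log2 2.76, edgeR adjusted p = 0.119), and ELIP1 had a log2 fold change of 1.29.

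By contrast, 0 of 22 light-harvesting and Rubisco genes were called and their median was -0.14. At an unadjusted p below 0.05, 2 were higher (LHCB2.1 and LHCA4, 0.87 and 0.86) and 2 lower (LHCB2.3 and LHCB5, -1.68 and -0.88). The shares over all genes were 1.52% higher and 0.973% lower. LHCB2.1 shares 31.2% and LHCB2.3 39.9% of its 31-base words with other genes, so their values are uncertain. Of 15 chlorophyll and heme synthesis genes 0 were called and the median was 0.004. PORA, the light-sensitive protochlorophyllide oxidoreductase of etiolated tissue, stood at 536, 952 and 469.9 in the dark and at 242, 236 and 230.2 after 30 min (log2 -1.47, unadjusted p = 0.0123), and PORB had a log2 fold change of -1.25 (unadjusted p = 0.00563). Of 4 flavonoid genes tested, F3H alone had an unadjusted p below 0.05 (log2 2.22), and 88.2% of its 31-base words also occur in other genes, among them an opposite-strand gene that spans it.

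Of 29 rapid stress-response genes 1 was called (DREB2A), 2 passed at 0.05 (HSFA2 in addition) and 6 were higher at an unadjusted p below 0.05. The shares of all genes higher at these thresholds were 0.0836%, 0.131% and 1.52%. The median of the list was 0.61. ZAT6, a zinc finger repressor, stood at 269, 128 and 432 normalized counts in the dark and at 1159, 1001 and 1463 after 30 min (log2 2.14, edgeR adjusted p = 0.0658). ZAT12 (1.37), MYB44 (0.88) and SZF2 (0.72) completed the 6. The remaining members, mostly jasmonate, ethylene response factor and WRKY genes, had values between -0.41 and 2.17. Among the members that the filter removed, CBF2 had 1 to 14 counts before scaling in the dark and 45 to 69 after 30 min. CBF3 had 0 in the dark and 10 to 25 after 30 min, and the ranges of JAZ5 overlapped (3 to 94 and 6 to 39).

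0 genes were called lower, but the lower end of the distribution had a recognizable make-up. PIL1 (AT2G46970), a bHLH gene used as a marker of the shade response, stood at 350.2, 278 and 252 normalized counts in the dark and at 33, 39.7 and 31.2 after 30 min. It was lower in every light library, by 8.44-fold on the fitted scale (log2 -3.08 ± 0.64, SE), with an adjusted p of 0.0559 by edgeR over all 18 libraries. PIL1 was called at 0.01 in 4 of 18 alternative fits, among them the fit on the 6 libraries alone. The adjusted p of PIL1 over all alternatives ran from 2.66e-06 to 1.

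The HD-ZIP class II genes, members of the list of PIF-induced shade and growth genes, also had lower values. ATHB2 (AT4G16780) stood at 632, 729 and 354 in the dark and at 119, 63.3 and 130.2 after 30 min (log2 -2.46 ± 0.59, SE, edgeR adjusted p = 0.147). ATHB4 stood at 111, 81.6 and 169 and at 7.07, 0 and 6.25 (log2 -4.76 ± 1.18, SE), and HAT3 at 279.8, 249 and 109 and at 47.1, 32.8 and 18.7 (log2 -2.69). The groups did not overlap in any of these genes, and none passed after adjustment in this fit, while all 3 were called at 0.01 by the DESeq2 Wald test and by limma-voom. Over all alternatives their adjusted p ran from 7.32e-05 (ATHB2), 0.000228 (ATHB4) and 0.000527 (HAT3) to 1. HAT2 had a log2 fold change of -1.27 and HAT1 of -1.54.

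IAA29, an Aux/IAA repressor, stood at 253, 315 and 223 normalized counts in the dark and at 21.2, 30.5 and 71.4 after 30 min (log2 -2.69 ± 0.68, SE, edgeR adjusted p = 0.194). PAR1, an atypical HLH protein that dampens the shade response, stood at 115, 114 and 87.1 and at 5.5, 21.3 and 2.68 (log2 -3.38). KDR, an HLH protein that promotes elongation, stood at 188, 196 and 34.5 and at 31.4, 15 and 32.1, so that dark replicate 3 lay just above the light libraries. Beyond the list, AT5G44260, a CCCH zinc finger gene (log2 -2.99), EXO, a brassinosteroid-responsive growth gene (-2.38), AT4G38860, a SAUR gene (-2.14), and AT5G02580 (-1.79) completed the 10 lower genes of smallest p without overlap.

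Over the list of PIF-induced shade and growth genes, 17 of 22 were tested and all 17 had negative log2 fold changes, with a median of -1.56. Of these, 11 had an unadjusted p below 0.05, against 0.973% of all genes, and 12 lay lower without overlap, against 5.38%, while 0 passed after adjustment in this fit. The DESeq2 Wald test called 7 of the 17 lower at 0.01 (PIL1, ATHB2, ATHB4, HAT3, IAA29, PAR1 and KDR), limma-voom with quality weights called 8 (HAT2 in addition), the fit on 9 libraries 2 and the fit on 6 libraries 1. The weakest was HFR1 (-0.06). The PIF genes themselves were mixed in direction, with 3 of 6 negative and 3 positive. PIF1 and PIF3 lay lower without overlap and PIF7 higher without overlap, against 5.38% and 5.95% of all genes. PIF3 (-0.69), PIF1 (-0.32), PIF6 (-0.13), PIF4 (0.06), PIF5 (0.14) and PIF7 (1.21) had unadjusted p-values between 0.144 and 0.942. Of 13 Aux/IAA and GH3 auxin response genes, 0 had an unadjusted p below 0.05 and the median was -0.27. The 4 dark and carbon starvation genes had values between -0.68 and -0.39, also with 0 at an unadjusted p below 0.05.

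**Figure D3:**
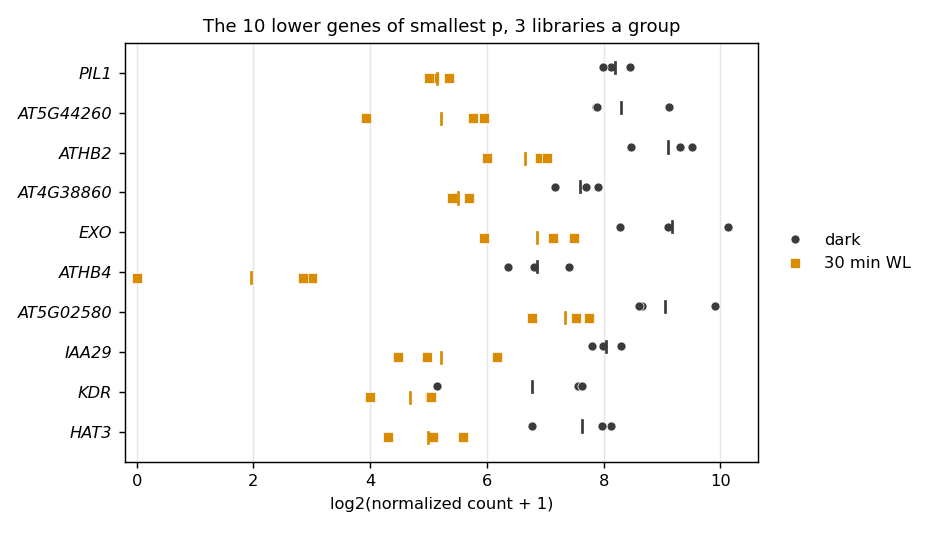
Normalized counts (log2 of the normalized count + 1, horizontal axis) of the 10 lower genes of smallest p in the 3 dark (circles) and 3 30-min WL (squares) libraries, with the group mean as a vertical line. The squares lie to the left of the circles in every row. The gap is narrow for KDR, whose lowest dark library stood at 34.5 against 32.1 in the highest light library.

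The xylem-repressing peptide TDIF, a product of the CLE41 and CLE44 genes, acts through PXY, a leucine-rich repeat receptor kinase with the close relatives PXL1 and PXL2. At 30 min of WL, 0 of 14 TDIF signaling and xylem differentiation genes tested had an unadjusted p below 0.05, and the median log2 fold change was 0.02. CLE44 stood at 144, 101 and 171 normalized counts in the dark, at 198, 247 and 86.5 after 15 min and at 97.4, 93.2 and 46.4 after 30 min, so the 30-min libraries lay just below the dark ones (log2 -0.80 ± 0.67, SE, unadjusted p = 0.24). PXL1 stood at 147, 114 and 238 in the dark and at 62.1, 78.9 and 79.4 after 30 min, also without overlap (log2 -1.17 ± 0.71, SE, unadjusted p = 0.113). CLE41 (0.11) and PXY (0.27) had values near 0. PXL2 did not pass the filter, and stood at 91.6, 56.4 and 41.7 and at 25.9, 48.9 and 8.03. CLE44 overlaps a neighbour on its strand by 492 bases, and PXL1 and PXL2 lie within or across opposite-strand genes, so their counts are uncertain.

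**Figure D4:**
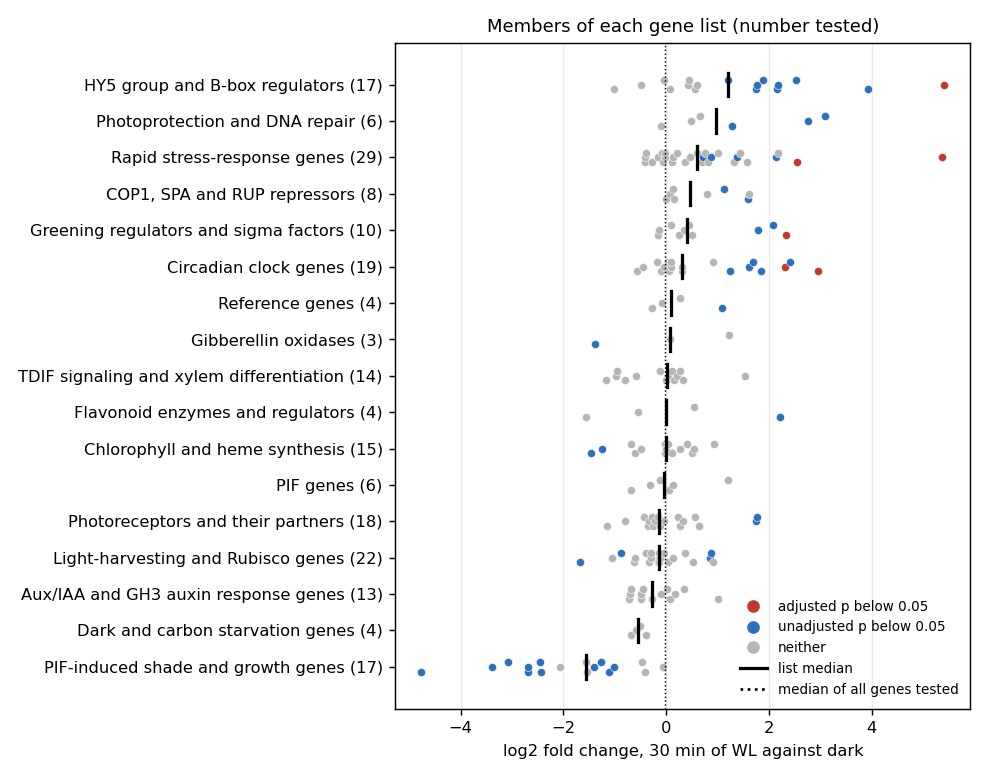
Log2 fold change at 30 min of WL against the dark (horizontal axis) for each tested member of 17 gene lists, with the number tested in parentheses. The HY5 and B-box list has the highest median (1.204) and the PIF-induced shade and growth list the lowest (-1.56), with all 17 of its members below 0.

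The 30-min group was also set against the 15-min group directly, to ask what the next 15 min added. At an adjusted p below 0.01, 0 genes were called higher (0%) and 0 lower (0%) by edgeR, and 175 (1.04%) and 36 (0.215%) had an unadjusted p below 0.05. The DESeq2 Wald test called 17. Each of the 14 genes called against the dark was higher at 30 min than at 15 min in all 3 libraries, with log2 differences from 1.22 for DREB2A to 3.47 for BBX30. The smallest adjusted p was that of ABCI21 (0.0211), followed by EPR1 (0.0425). Both comparisons use the same 30-min libraries, and the 14 genes were chosen for high values in them, so the values are a description only. The share of all genes tested with every 30-min library above every 15-min library was not counted. BBX30 stood at 6.21, 17.9 and 13 normalized counts at 15 min, between its dark and its 30-min libraries. HSP70 stood at 592, 657 and 555 at 15 min, likewise in between. ABCI21, at 52.2, 32.5 and 40.3, was still close to its dark values.

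Set side by side over the later groups, which share the dark libraries, the 14 genes parted. The median of their log2 fold changes relative to darkness went from 1.04 (15 min) to 2.84 (30 min), 3.45 (60 min), 2.72 (150 min) and 2.60 (360 min), and all 14 stayed positive throughout. At 60 min 10 of the 14 had a larger value than at 30 min and 13 were called. The share of all genes called at 60 min was not counted. The 14 genes were chosen against these same dark libraries, so their sign and calls at other times are a description only. RPT2 went on from 2.23 at 30 min to 4.36, 4.62 and 4.35 at the 3 later times, and AT1G64500 from 2.26 to 4.23, 4.55 and 4.67. ABCI20 and BBX30 also stayed above their 30-min values.

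Others were highest at 30 or 60 min. LNK3 had 2.96 at 30 min, 3.60 at 60 min and 0.56 at 360 min, and MBF1C had 2.92, 3.31 and 0.84 at the same times. HSFA6B had its largest value at 30 min (3.82, against 2.85 at 60 min), as did HSP101 (2.62, against 2.24). These differences between later times and 30 min were not tested. SIG5, which passed only at 0.05 at 30 min, had log2 fold changes of 6.37 at 60 min and 6.59 at 360 min.

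The 10 lower genes were negative in every group. Their median went from -1.23 (15 min) to -2.57 (30 min), -2.63 (60 min), -3.35 (150 min) and -2.996 (360 min), with 0, 0, 1, 6 and 4 of them called. The shares of all genes called at the later times were not counted. These 10 genes were also chosen against the same dark libraries, so their sign and calls at other times are a description only. PIL1 was near its final level at 30 min, with -1.81 at 15 min, -3.08 at 30 min and -3.23, -3.59 and -3.29 later. KDR had -2.42 at 30 min but -0.09 at 150 min.

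**Figure D5:**
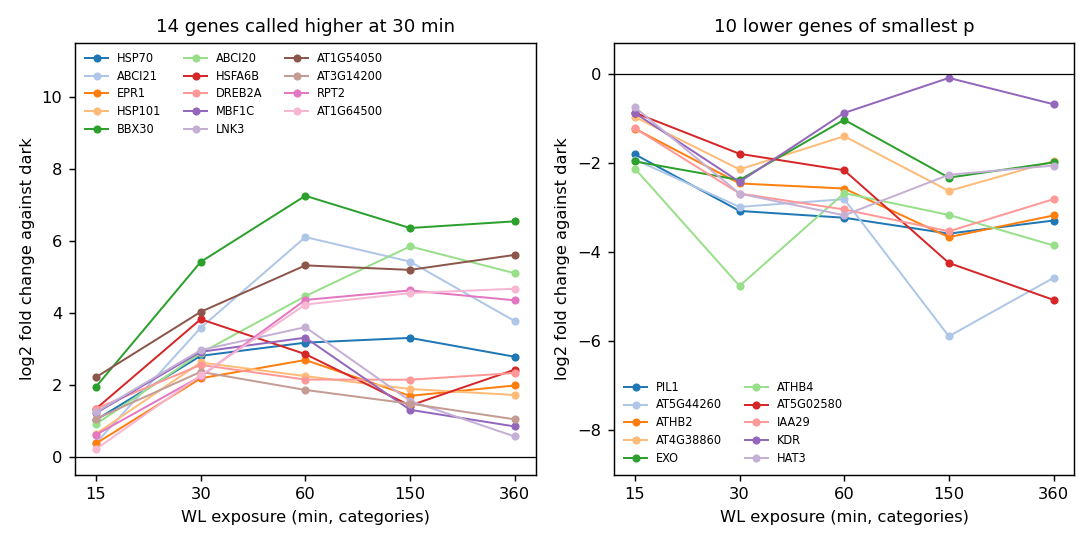
Log2 fold change against the dark (vertical axis) at each WL exposure (horizontal axis, min, equally spaced categories) for the 14 genes called higher at 30 min (left) and the 10 lower genes of smallest p (right), each point a group of 3 libraries against the same 3 dark libraries. All 14 lines on the left stay above 0 and all 10 on the right below 0.

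The biological coefficient of variation was 0.54. Leaving out dark replicate 1 gave 0 genes called at 0.01 and 14 at 0.05, 13 of them among the 14 called above. Without dark replicate 2 there were 3 at 0.01, 2 of them among the 14, and without dark replicate 3 there was 1. Without light replicates 1, 2 and 3 there were 7, 2 and 6, all among the 14. The sign of all 14 genes was kept in each. For every called gene the two-sided exact permutation test gave p = 0.1, the smallest that 3 against 3 libraries allow.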

How the data were processed

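RNA-seq was done by the authors on 18 libraries, 3 biological replicates for each of 6 groups, and the groups follow the labels. The authors assigned reads with kallisto to AtRTD2 transcripts and deposited an estimated count and a TPM for each of 82190 transcripts in every library. The TPM values deposited by the authors are relative to each library's sum, plastid ribosomal RNA included. From these, counts per gene were rebuilt after the lengthScaledTPM option of tximport, rounded, and filtered to genes with 0 counts in fewer than 2 replicates of every time point (16747 left). They were fitted in R 4.3.3 with edgeR 4.0.16 (TMM, robust quasi-likelihood fit over all 18 libraries, no block). Adjusted p-values follow Benjamini and Hochberg and were called below 0.01 or 0.05. In this fit they set the difference between groups against a spread between replicates. That spread was estimated over all 18 libraries, with information shared between genes. Alternatives used DESeq2 1.42.0 and limma 3.58.1. The normalized table deposited for the whole series was not used.

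Single genes were also compared by a two-sided exact permutation test on log2(normalized count + 1). Named genes are every gene called at 0.01, further higher genes by p up to 20, the 10 lower genes of smallest p (both without overlap and averaging 10 or more normalized counts in the higher group), and, of each list, members with an unadjusted p below 0.05, up to 4 of smallest p, and all PIF, TDIF and main photoreceptor genes. AT1G61890, AT3G10113, TOC1, LHY, ELF3, LNK2, RVE8, BBX20, BBX21, HAT1 and HFR1 were named after their values were seen. So were PRR9, CBF2, CBF3, JAZ5 and GA3OX1, which the filter removed. The members of the comparison and the lists (20 lists, 255 of 262 IDs with a matching RefSeq symbol) were chosen with earlier results of these data known. Gene positions, upstream sequences and shared 31-base words come from the TAIR10.1 assembly and its RefSeq annotation, since the files carry no coordinates.

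The test was tried on simulated counts of 16555 genes for 30 min against dark. These were negative binomial counts around the mean of each gene and the effective library sizes of the data. Each gene took the spread fitted for its mean level, so genes or libraries that stray further were not simulated. The test called 35 of 48 genes raised by a log2 of 3, 15 of 49 raised by 2, 30 of 49 lowered by 3 and 5 of 49 lowered by 2, and 0 of 16360 unchanged genes. These shares hold for the simulated setting and are not error rates for the real libraries.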

Additional observations from a re-analysis of the deposited data

Results flagged for a closer look

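CCA1, a MYB-like gene of the core clock, was lower than every dark library in all 3 libraries at 15 min and higher than every dark library in all 3 at 30 min. It stood at 133, 183 and 160 normalized counts in the dark, at 108, 87.6 and 54.5 after 15 min and at 326, 320 and 487 after 30 min. The difference between 30 and 15 min was 2.17 on the log2 scale (SE 0.42, unadjusted p = 2.97e-05, adjusted p = 0.0554 by edgeR), which misses both thresholds. CCA1 was found by searching the named genes for this pattern, so these p-values rest on the values that picked it and are a description. The share of all genes tested with the pattern was not counted.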

How the results depend on the processing

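The count of genes called at 0.01 at 30 min of WL against the dark was 14 and stayed within 1.5 times of that (13 to 19) with summed estimated counts, DESeq2 size factors, 23S ribosomal RNA left out, a fit without robust estimation, no filter, and filterByExpr. It was 0 with libraries scaled by total counts, which moved the median of all genes from -0.02 to 0.25, and 7 in the fit on 6 libraries (6 higher, 1 lower), 27 in the fit on 9 libraries (22 higher, 5 lower), 56 with the DESeq2 Wald test (45 higher, 11 lower), 68 with limma-voom and quality weights (41 higher, 27 lower), and 22 at an adjusted p below 0.05. Without 1 of the 6 libraries it ran from 0 to 7. The same 14 genes kept their sign in every alternative. Of the 14, the DESeq2 Wald test called all, limma-voom 13, the fit on 9 libraries 12 and the fit on 6 libraries 5. Deviations from the group means had correlations of -0.21, -0.05 and 0.27 between same-numbered dark and 30-min libraries. Those between differently numbered libraries ran from -0.315 to 0.476. With 3 libraries a group these values cannot settle whether the replicate numbers pair the samples. With the replicate block 5 genes were called, and 0 for 30 against 15 min. For 30 against 15 min the count was 0, and 1 with no filter, 1 in the fit on 9 libraries, 17 with the DESeq2 Wald test and 46 with limma-voom, and 0 without any 1 library. For these changes the cause was not tested.

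Of 108 genes named and tested, 7 changed sign somewhere, all with fold changes near 0. Scaling by total counts gave PHYA 0.10, CRY1 0.16 and PIF6 0.049, and limma-voom gave PIF4 -0.044. Leaving out each library in turn gave PIF5 -0.20 to 0.55, PIF4 -0.40 to 0.40, PHYA -0.34 to 0.28, PHYC -0.24 to 0.74, CRY1 -0.33 to 0.13, PIF6 -0.31 to 0.0086 and CLE41 -0.16 to 0.46. Scaling by total counts also moved list medians by more than the spread between libraries, to 1.78 for HY5 and B-box regulators, 0.53 for the clock, 1.28 for photoprotection and 0.28 for chlorophyll synthesis, and turned that of the 2 root markers from -0.15 to 0.09.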

Other observations

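For 3 of the genes called, the share of their transcripts differed between the groups as kallisto estimated it. ABCI21 was assigned 51.8, 38.7 and 15 estimated counts of the transcript AT5G44110.3 in the dark libraries, against 0.00264, 0.00772 and 0.00599 of the transcript AT5G44110_P1. After 30 min of WL, AT5G44110_P1 took 310.3, 681.5 and 146.1 estimated counts and AT5G44110.3 took close to 0, 85.4 and 267, so the rise of the gene in light replicates 1 and 2 was carried mostly by a transcript that was near 0 in the dark. For ABCI20, AT5G02270_c1 made up 0%, 32.3% and 16.5% of the gene's TPM in the dark and 35.4%, 47.9% and 47% after 30 min. For AT3G14200, AT3G14200_P1 made up 47.2%, 100% and 25.4% in the dark and 0.778%, 0% and 0% after 30 min, and AT3G14200_ID2 made up close to 0% in the dark and 13.9%, 27% and 27.6% after 30 min. The largest share after 30 min was that of AT3G14200_c1, with 85.3%, 73% and 72.4%, against 52.8%, 0% and 74.6% in the dark. The transcripts of a gene share most of their sequence, the dark counts are low, and no test of these shares was run.

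UBQ10, a polyubiquitin gene often used as a reference, stood at 27120, 8906 and 12470 normalized counts in the dark and at 30590, 38830 and 33740 after 30 min (log2 1.09, unadjusted p = 0.02, edgeR adjusted p = 1). It shares 17% of its 31-base words with other genes.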
